A study of Aconitum japonicum with 4 samples.

Results

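The tuberous roots of *Aconitum japonicum*, a toxic medicinal plant, expressed 46 transcripts at high and similar levels in mother root and daughter root while leaf and rootlet held them at much lower levels. These 46 were chosen by the measured values themselves. A transcript was selected where its FPKM (fragments mapped to it, scaled for its length and for the size of the library) was at least 30 in mother root and in daughter root, differed between them by no more than 2-fold, and was in each at least 4 times the FPKM of leaf and at least 4 times that of rootlet. The 46 members are 0.0355% of the 129760 assembled transcripts. High levels in the tuberous roots and low levels in leaf and rootlet are therefore what the rule asked for, and they are given below as a description.

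RNA was sequenced from 4 tissues of plants grown in a greenhouse: mother root, the main tuberous root; daughter root, the new tuberous root that sprouts from it; leaf; and rootlet, the fine fibrous root. Tissues were harvested from 5 plants, but each tissue is represented by 1 library from a single biological replicate, with no treatment and no genetic change in any of them. A difference between tissues thus has no replicate check, and no test between tissues was made. The expected fragments summed to 11801534 in mother root, 12792781 in daughter root, 4516426 in leaf and 4492151 in rootlet, so a low value in leaf or rootlet rests on fewer fragments than the same value in a tuberous root. Intervals below are 95% limits on the fragment counts (exact Poisson for a level, exact binomial for a share or a ratio) and cover counting error only. The leaf label could be checked only weakly. Of the 11 transcripts described as photosynthesis proteins, 8 were listed by the study as seen in leaf only and cannot serve as a check, and 2 of the other 3 were highest in leaf. The clearest of them was TR836|c0_g1_i1, a photosystem II cytochrome b559 subunit, with 0 fragments in mother root and 1 in daughter root, against 44 in leaf and 0 in rootlet.

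The tubers of monkshoods store reserves and renew the plant each year, the daughter root replacing the mother root. They are also known for diterpenoid alkaloids such as aconitine, which are built from a diterpene skeleton by cytochrome P450 enzymes, the incorporation of nitrogen and methylation, and which carry acetyl and benzoyl esters. Ester and amide groups of this kind are commonly added in plants by BAHD acyltransferases, which move an acyl group from coenzyme A onto an alcohol or an amine. Among the members, 2 carry a description in the study's tables held here, both as such an acyltransferase, and the other 44 are known only by their assembly names. In these names the TR number marks a Trinity cluster, c and g mark a Trinity gene (transcripts that Trinity groups by shared sequence) and i marks an isoform.

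Of the conditions, low levels in rootlet were the one that fewest abundant transcripts met. At least 30 FPKM was reached in both tuberous roots by 4904 transcripts (3.78% of all), and 4119 of these were also within 2-fold. Of the 4119, 634 (15.4%) were at least 4 times leaf in both tuberous roots, whereas 69 (1.68%) were at least 4 times rootlet. Both conditions together left 46 (1.12%). The rootlet condition thus removed 588 transcripts that had passed the leaf condition, and the leaf condition removed 23 that had passed the rootlet condition. In bulk tissue, a lower level can come from fewer cells of a type or from less RNA per cell, and these cannot be told apart. Without the demand for similar levels in the tuberous roots, 95 transcripts would have been selected. Of the 49 added in this way, 11 were higher in mother root and 38 in daughter root. Daughter root was the higher for 355 (45.2%) of all 785 transcripts with at least 30 FPKM in both tuberous roots and more than 2-fold apart.

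**Figure D1:**
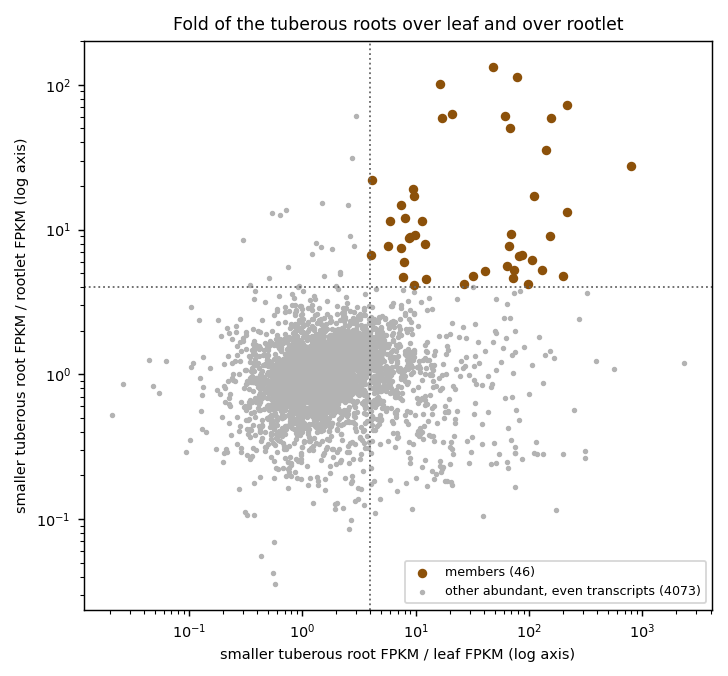
The smaller tuberous root FPKM divided by leaf FPKM (x axis, log scale) and by rootlet FPKM (y axis, log scale) for the 46 members and for the other 4073 transcripts with at least 30 FPKM in both tuberous roots and within 2-fold. Dotted lines mark the 4-fold conditions, a library with 0 fragments was set to 3 fragments, and far fewer grey points lie above the horizontal line than to the right of the vertical line.

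One transcript held most of the members' fragments. TR51009|c2_g1_i1, of 1828 bases and with no description in the tables held here, had 15890 FPKM (15834 to 15945) in mother root and 18051 FPKM (17994 to 18108) in daughter root, against 101.2 FPKM in leaf and 267.6 FPKM in rootlet. It was the most abundant of all transcripts in both tuberous libraries, and ranked 1501 in leaf and 763 in rootlet. Its level in mother root was 157 times that of leaf (146 to 169) and 59.4 times that of rootlet (56.8 to 62.1), and in daughter root 178 times that of leaf (166 to 192) and 67.5 times that of rootlet (64.6 to 70.5). The transcript alone took 2.67% of the fragments of mother root and 3.03% of those of daughter root. All 46 members took 3.14% of the fragments in mother root and 3.5% in daughter root, against 0.0329% in leaf and 0.0758% in rootlet. Without TR51009|c2_g1_i1, the other 45 took 0.469% in each tuberous root, with limits of 0.465% to 0.473% in mother root and 0.466% to 0.473% in daughter root, against 0.0159% in leaf and 0.0308% in rootlet.

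The members spanned a wide range of levels. Their median FPKM was 81.4 in mother root and 98.9 in daughter root, against 1.61 in leaf and 7.34 in rootlet. In both tuberous roots, 19 members reached 100 FPKM or more and 7 stayed under 60. Among the 1000 most abundant transcripts of a library were 8 members in mother root and 9 in daughter root, none in leaf and 1, TR51009|c2_g1_i1, in rootlet. In leaf 19 members lay under 1 FPKM, and in rootlet 3 did (TR20800|c0_g1_i2, TR54318|c10_g4_i1 and TR41761|c0_g2_i1).

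**Figure D2:**
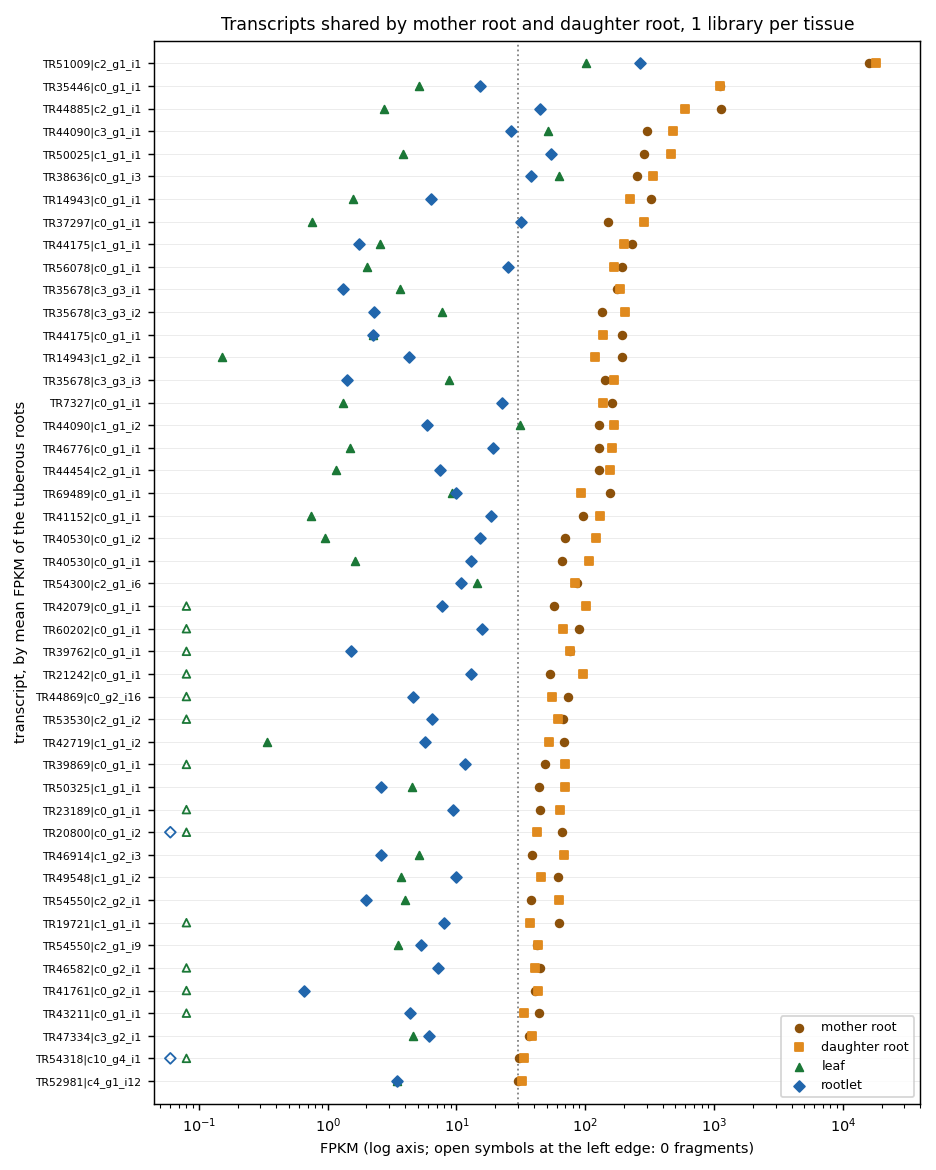
FPKM (log axis) of each of the 46 members in the single library of mother root, daughter root, leaf and rootlet, ordered by the mean of the tuberous roots, with open symbols for 0 fragments and a dotted line at 30 FPKM. TR51009|c2_g1_i1 stands above all others, and rootlet lies to the right of leaf for 33 of the 46.

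Both described members belong to the Trinity cluster TR14943, each as the only transcript of its Trinity gene, and both are described as deoxytaxol N-benzoyltransferase. This BAHD acyltransferase is known from yew (Taxus), where it adds the benzoyl group to the amino group of the taxol side chain. TR14943|c1_g2_i1, of 1646 bases, had 193.4 FPKM in mother root (3420 fragments) and 119.1 FPKM in daughter root (2283 fragments), against 0.15 FPKM in leaf (1 fragment) and 4.31 FPKM in rootlet (29 fragments). TR14943|c0_g1_i1, a short transcript of 289 bases, had 323.7 FPKM in mother root (539 fragments) and 223.5 FPKM in daughter root (406 fragments), against 1.57 FPKM in leaf (1 fragment) and 6.33 FPKM in rootlet (4 fragments). The order of the tissues was the same for both, with mother root first, then daughter root, rootlet and leaf. Mother root was higher than daughter root, by 1.62-fold (1.54 to 1.71) for TR14943|c1_g2_i1 and by 1.45-fold (1.27 to 1.65) for TR14943|c0_g1_i1. Over rootlet, TR14943|c1_g2_i1 was 44.9-fold higher in mother root (31.2 to 67.1) and 27.6-fold higher in daughter root (19.2 to 41.3). The ratio of TR14943|c1_g2_i1 to leaf was 1308 in mother root and 805 in daughter root, but the single leaf fragment leaves limits of 235 to 51693 and of 144 to 31820.

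The tables held here describe 10 transcripts as acyltransferases of this kind, and the TR14943 pair are the 2 members among them. The other 8 were all highest in leaf, from 4.83 FPKM for TR19782|c0_g1_i1 to 20.9 FPKM for TR37680|c1_g1_i3. These 8 had 0 FPKM in mother root and in rootlet, and in daughter root the highest was TR1643|c0_g1_i1 at 0.78 FPKM. Of these 8, 7 are entries of a list the study made of transcripts seen in leaf alone, with 2 to 52 leaf fragments, so their pattern follows from the list and sets no contrast with the TR14943 pair, which the rule chose. The tables describe 2768 transcripts and are held in part, so acyltransferases outside them were not counted.

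None of the 162 transcripts in 10 other lists, alkaloid-related and general, was a member. With members at 0.0355% of all transcripts, lists of this size would mostly hold none, so nothing is read from the absence. There was no member among the 13 transcripts of the mevalonate pathway and the 18 of the plastid MEP pathway, which supply the isoprenoid precursors. Likewise none was found among the 19 of the kaurene and atisene steps, which form the diterpene skeleton, or among the 17 P450 transcripts the study set apart. In the mevalonate list, 2 transcripts of hydroxymethylglutaryl-CoA reductase, TR50314|c2_g1_i1 and TR50314|c2_g1_i5, met every condition but the one on rootlet, and in the MEP list 4 were abundant and even but none was at least 4 times leaf. Of the 17 P450s, 4 reached 30 FPKM in both tuberous roots and 1 was also within 2-fold. This was TR52743|c4_g3_i1, with 173.2 FPKM in mother root and 112.1 FPKM in daughter root, against 24.4 FPKM in leaf and 137.1 FPKM in rootlet. The FPKM of the 17 summed to 775.6 in mother root, 357.1 in daughter root, 69.2 in leaf and 267.3 in rootlet. The study chose these 17 in these same libraries, for their correlation with alkaloids that were highest in mother root. Their lead in mother root, and the few that were even, thus follow from that choice. Further lists held other transcripts whose description names a P450 (19), methyltransferase (19), glycosyltransferase (11), lectin (20), or starch or sucrose (7). These lists also held no member. They include P450 reductases and kinases with a lectin domain. In all of them but the P450 list, some entries came from the study's lists of transcripts seen in leaf or rootlet alone. Such entries could not be members. Of 19 described cytosolic ribosomal proteins, whose RNA is abundant in most cells, 8 were abundant and even in the tuberous roots, 3 (TR1199|c0_g1_i1, TR13605|c0_g1_i1 and TR14593|c0_g1_i1) were at least 4 times leaf in both and none was at least 4 times rootlet in both.

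Next to TR51009|c2_g1_i1, 4 members led by abundance. TR35446|c0_g1_i1, of 235 bases, had 1114 FPKM in mother root and 1110 FPKM in daughter root, against 5.1 FPKM in leaf (2 fragments) and 15.4 FPKM in rootlet (6 fragments). Its tuberous levels were nearly equal, with a mother root to daughter root ratio of 1.004 (0.926 to 1.09). TR44885|c2_g1_i1, of 1194 bases, had 1132 FPKM in mother root and 590 FPKM in daughter root, against 2.75 FPKM in leaf and 44.3 FPKM in rootlet. It stood 411-fold (240 to 772) above leaf in mother root but 25.6-fold (22.3 to 29.5) above rootlet, and in leaf it lay at 0.0622 of its rootlet level (0.0326 to 0.109). TR44090|c3_g1_i1, of 1661 bases, had 303.8 FPKM in mother root and 478.6 FPKM in daughter root, against 50.9 FPKM in leaf and 26.5 FPKM in rootlet. TR50025|c1_g1_i1, of 264 bases, had 284.5 FPKM in mother root and 462.2 FPKM in daughter root, against 3.83 FPKM in leaf and 53.8 FPKM in rootlet. Rootlet was above leaf for TR50025|c1_g1_i1, while leaf was above rootlet for TR44090|c3_g1_i1.

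Ranked by the lower counting limit on the smallest of their folds over leaf and rootlet, a partly different set led. TR51009|c2_g1_i1 came first at 56.8 and TR44175|c1_g1_i1 second at 48.5, followed by TR35446|c0_g1_i1 and TR35678|c3_g3_i1, both at 33.1, and TR39762|c0_g1_i1 at 19.6. TR44175|c1_g1_i1, of 1547 bases, had 230.6 FPKM in mother root and 199.7 FPKM in daughter root, against 2.53 FPKM in leaf (16 fragments) and 1.75 FPKM in rootlet (11 fragments). The gap was similar on both sides, at 91.0-fold over leaf (56.0 to 159) and 132-fold over rootlet (73.5 to 264) in mother root. TR39762|c0_g1_i1, of 739 bases, had 76.7 FPKM in mother root and 75.9 FPKM in daughter root, against 0 fragments in leaf and 1.51 FPKM in rootlet (4 fragments). With 3 fragments taken as the floor of the leaf library, mother root was at least 68.2-fold and daughter root at least 67.5-fold higher than leaf. This floor leaves out the counting error of the tuberous root, and the 95% counting limits, which include it, reach down to 55.3 and 54.7.

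Values of 0 were common in leaf and rootlet. Of all 129760 transcripts, ranked from the most abundant, those at 0 FPKM started at rank 96789 in leaf and 79663 in rootlet. Among the members, no fragment was assigned in leaf for 14, and in rootlet for 2, which were also at 0 in leaf. These were TR20800|c0_g1_i2, of 287 bases, with 65.8 FPKM in mother root (108 fragments) and 42.4 FPKM in daughter root (76 fragments), and TR54318|c10_g4_i1, of 399 bases, with 30.4 FPKM in mother root (90 fragments) and 33.5 FPKM in daughter root (108 fragments). Against the same floor, TR20800|c0_g1_i2 was at least 13.7-fold higher in mother root and at least 8.85-fold higher in daughter root than in leaf, and its counting limits reached down to 11.0 and 7.03. For TR54318|c10_g4_i1 the folds against the floor were 11.5 and 12.6, with lower counting limits of 9.13 and 10.1. Both transcripts are short and of low count, so their absence from leaf and rootlet was established only down to a floor of 4.79 FPKM for TR20800|c0_g1_i2 and 2.65 FPKM for TR54318|c10_g4_i1 in leaf, and of 4.81 FPKM and 2.66 FPKM in rootlet.

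The 46 members fell into 43 Trinity genes and 39 Trinity clusters, and 6 clusters held more than 1 member, 13 members in all. TR35678 was the only cluster with 3. Its members are isoforms of 1 gene and include the longest of all, TR35678|c3_g3_i3 (1893 bases) and TR35678|c3_g3_i1 (1844 bases). TR35678|c3_g3_i1 had 175.2 FPKM in mother root and 184.5 FPKM in daughter root, against 3.66 FPKM in leaf and 1.31 FPKM in rootlet. TR35678|c3_g3_i3 had 142.7 FPKM in mother root and 168.1 FPKM in daughter root, against 8.76 FPKM in leaf and 1.40 FPKM in rootlet. TR35678|c3_g3_i2 had 134.3 FPKM in mother root and 203.3 FPKM in daughter root, against 7.78 FPKM in leaf and 2.29 FPKM in rootlet. All 3 isoforms were higher in leaf than in rootlet, unlike most members, by 2.79-fold (1.31 to 6.43), 6.24-fold (3.28 to 13.1) and 3.39-fold (1.95 to 6.22) for i1, i3 and i2.

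The remaining isoforms of that gene, both shorter, followed another pattern. TR35678|c3_g3_i4 (1171 bases) had 62.9 FPKM in mother root and 182.4 FPKM in daughter root, against 94.4 FPKM in leaf and 1.74 FPKM in rootlet. TR35678|c3_g3_i5 (1231 bases) had 24.2 FPKM in mother root and 163.7 FPKM in daughter root, against 92.5 FPKM in leaf and 0.62 FPKM in rootlet. Leaf was thus above mother root for i4 and i5 and far below it for i1, i2 and i3, while rootlet was low for all 5. A fragment from sequence that isoforms share can be assigned to any of them. The split between the longer and the shorter isoforms depends on that assignment. Summed over the gene, FPKM was 539.2 in mother root and 902.0 in daughter root, against 207.1 in leaf and 7.36 in rootlet, and the gene did not meet the rule.

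**Figure D3:**
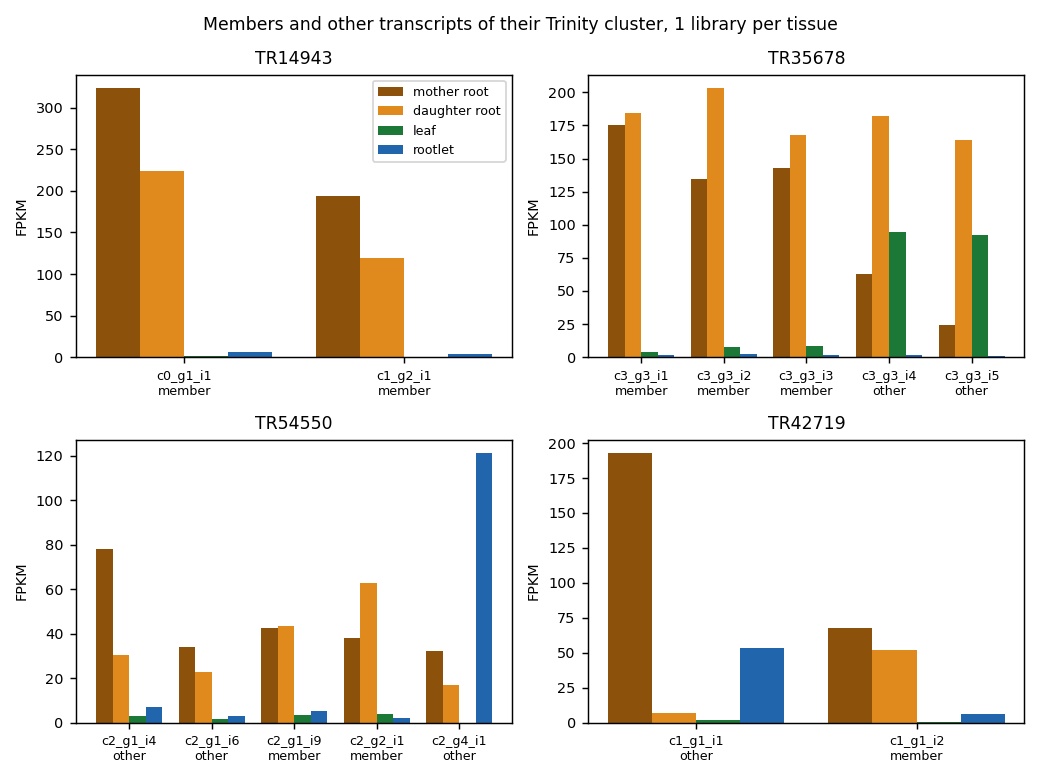
FPKM of members and of other transcripts in 4 Trinity clusters, with bars for the single libraries of mother root, daughter root, leaf and rootlet. The TR14943 pair share 1 pattern, and non-members in TR54550 and TR42719 differ from the member beside them. Among the isoforms of the gene TR35678|c3_g3, leaf is high only for i4 and i5. Other genes of the TR35678 cluster are not drawn. Leaf was also high for TR35678|c2_g1_i1 (234.6 FPKM) and TR35678|c0_g1_i1 (151.4 FPKM) among them.

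The other 5 clusters with several members held pairs, and 4 of these besides TR14943 are described here after their values were seen. In TR44175, TR44175|c0_g1_i1 (247 bases) had 192.2 FPKM in mother root and 137.5 FPKM in daughter root, against 2.24 FPKM in leaf and 2.25 FPKM in rootlet (1 fragment each), which is the pattern of TR44175|c1_g1_i1 at a similar level. In TR44090, TR44090|c1_g1_i2 (262 bases) had 128.4 FPKM in mother root and 167.2 FPKM in daughter root, against 31.2 FPKM in leaf and 5.87 FPKM in rootlet. As for TR44090|c3_g1_i1 of the same cluster, daughter root led and leaf was above rootlet. The isoforms TR40530|c0_g1_i2 and TR40530|c0_g1_i1 had 69.9 and 66.5 FPKM in mother root and 121.3 and 107.5 FPKM in daughter root, against 0.96 and 1.64 FPKM in leaf and 15.2 and 12.9 FPKM in rootlet. Within each of these pairs, both transcripts leaned to the same tuberous root.

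TR54550 is the cluster in which members lie beside P450 transcripts. TR54550|c2_g1_i9 (650 bases) had 42.5 FPKM in mother root and 43.2 FPKM in daughter root, against 3.53 FPKM in leaf and 5.32 FPKM in rootlet. TR54550|c2_g2_i1 (260 bases) had 37.8 FPKM in mother root and 62.9 FPKM in daughter root, against 3.97 FPKM in leaf and 1.99 FPKM in rootlet. The study lists 2 further isoforms of the gene of TR54550|c2_g1_i9 as P450s, and neither is a member: TR54550|c2_g1_i4 (1705 bases) had 77.9 FPKM in mother root and 30.6 FPKM in daughter root, a ratio over 2, and TR54550|c2_g1_i6 (1115 bases) had 34.1 FPKM in mother root and 22.6 FPKM in daughter root, under the minimum. Both were also low in leaf (2.70 and 1.37 FPKM) and in rootlet (7.01 and 2.99 FPKM), and the gene summed over its 3 isoforms met the rule, at 154.5 FPKM in mother root and 96.4 FPKM in daughter root, against 7.6 FPKM in leaf and 15.3 FPKM in rootlet. In contrast, TR54550|c2_g4_i1 of the same cluster was highest in rootlet, with 32.1 FPKM in mother root, 16.9 FPKM in daughter root, 0 FPKM in leaf and 121.1 FPKM in rootlet.

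The sequences of these P450 isoforms are shown because they are the nearest to a member that the study's tables give. They show how isoforms that Trinity grouped into 1 member gene differ. The sequence of the member itself, TR54550|c2_g1_i9, is not among them. Whether these isoforms come from 1 gene of the genome was not tested. TR54550|c2_g1_i6 holds 329 bases (its positions 492 to 820, counted from its first base) that TR54550|c2_g1_i4 lacks. The same few bases open this insert and follow it, so its borders could equally lie slightly further on. Before this insert 463 of 491 bases are identical, and after it 284 of 295. Bases 495 to 509 and 808 to 822 of TR54550|c2_g1_i6 form an inverted repeat that matches at 14 of 15 bases. The lines give bases 462 to 521 of TR54550|c2_g1_i4, then bases 462 to 551 and 761 to 850 of TR54550|c2_g1_i6, as the table prints them, with capitals for the insert.
TR54550|c2_g1_i4, junction: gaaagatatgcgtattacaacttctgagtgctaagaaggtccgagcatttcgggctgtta
TR54550|c2_g1_i6, left end of the insert: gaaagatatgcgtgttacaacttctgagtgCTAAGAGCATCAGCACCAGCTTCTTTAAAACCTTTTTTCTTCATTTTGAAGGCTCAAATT
TR54550|c2_g1_i6, right end of the insert: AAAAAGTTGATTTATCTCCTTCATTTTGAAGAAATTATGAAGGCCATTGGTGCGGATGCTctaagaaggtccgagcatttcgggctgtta

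Whether a member spoke for its whole gene varied. Of the 43 member genes, 31 held 1 transcript in the assembly left after redundancy was removed. Isoforms taken out at that step could not be counted. Of the 12 with more, 5 met the rule when their FPKM was summed, namely those of TR20800, TR37297, TR40530, TR44869 and TR54550. In 4 genes, of TR35678, TR37297, TR40530 and TR46914, the members made up at least 50% of the summed FPKM in both tuberous roots. The smallest shares were those of TR54300|c2_g1_i6, 3.42% of its gene in mother root and 3.40% in daughter root, and TR52981|c4_g1_i12, 4.38% in mother root and 3.61% in daughter root. The gene of TR54300|c2_g1_i6 summed to 2514 FPKM in mother root and 2428 FPKM in daughter root, against 1073 FPKM in leaf and 1632 FPKM in rootlet, so the gene was abundant in all 4 tissues and only a minor isoform met the rule. TR42719|c1_g1_i2 had 67.8 FPKM in mother root and 52.0 FPKM in daughter root, against 0.34 FPKM in leaf and 5.73 FPKM in rootlet, whereas TR42719|c1_g1_i1, the other isoform of its gene, had 192.7 FPKM in mother root, 6.49 FPKM in daughter root, 2.08 FPKM in leaf and 53.0 FPKM in rootlet. The genes of TR54300 and TR42719 were chosen after their values were seen. Among the 36 non-member isoforms of member genes, 16 reached 30 FPKM in both tuberous roots, and 9 of these missed the leaf and the rootlet condition while meeting the 2-fold one. The 2-fold condition alone was missed by 3 (TR49548|c1_g1_i7, TR49548|c1_g1_i8 and TR54550|c2_g1_i4), and the rootlet condition alone by 2 (TR52981|c4_g1_i8 and TR53530|c2_g1_i4).

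Between the tuberous roots the members went both ways. The rule capped this ratio at 2-fold but left its direction free. Mother root was higher for 20 members and daughter root for 26, and the median log2 of their mother root to daughter root ratio was -0.08, against 0.05 over the 4119 abundant and even transcripts. Counting limits put 13 members above a ratio of 1, 21 below it and 12 across it. Over the 4119 transcripts, 38.6% lay above 1 and 29.2% below it. Rescaling the libraries by median-of-ratios factors shifted every log2 ratio of mother root to daughter root by -0.21, and mother root was then higher for 15 of the 46. The 5 that changed direction (TR35446|c0_g1_i1, TR39762|c0_g1_i1, TR46582|c0_g2_i1, TR53530|c2_g1_i2 and TR54300|c2_g1_i6) had ratios of at most 1.10 as deposited.

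At the ends of this range, direction was clear beyond counting error. TR44885|c2_g1_i1 had the highest ratio, 1.92 (1.87 to 1.97), and TR69489|c0_g1_i1 followed at 1.69 (1.57 to 1.82), with 155.5 FPKM in mother root and 91.9 FPKM in daughter root, against 9.27 FPKM in leaf and 9.96 FPKM in rootlet. The lowest were TR37297|c0_g1_i1 at 0.531 (0.4997 to 0.564), with 151.1 FPKM in mother root and 284.6 FPKM in daughter root, against 0.75 FPKM in leaf and 31.6 FPKM in rootlet, and TR21242|c0_g1_i1 at 0.550 (0.412 to 0.729). TR51009|c2_g1_i1 lay at 0.880 (0.876 to 0.884), slightly lower in mother root. Given 1 library per tissue, the variation between plants is not in these limits.

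**Figure D4:**
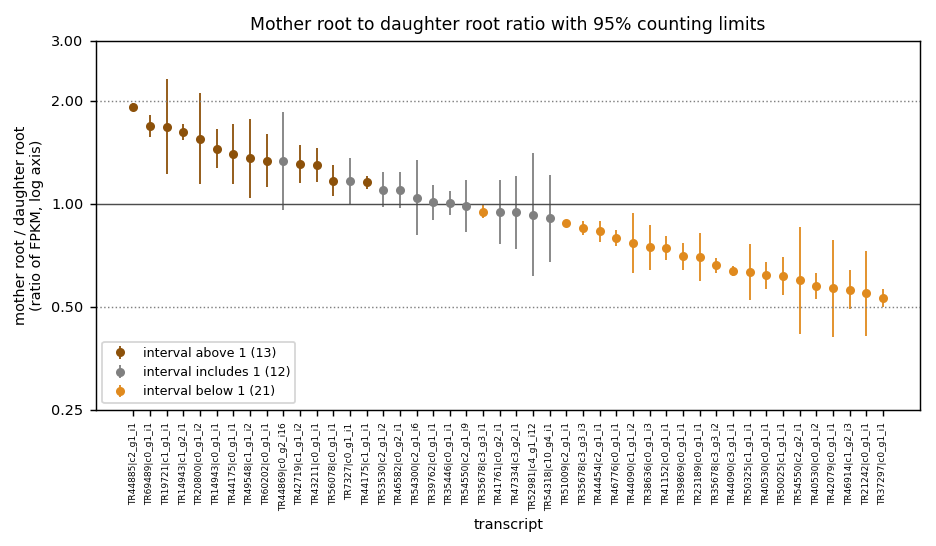
Ratio of mother root to daughter root FPKM (log axis) for each of the 46 members, in order, with bars for 95% counting limits and dotted lines at the 2-fold bounds of the rule. The limits lie above 1 for 13 members, below 1 for 21 and include 1 for 12.

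Of the tissues with low levels, rootlet was more often the higher. The rule set an upper bound on leaf and on rootlet and left their order free. Leaf was above rootlet for 11 members and rootlet above leaf for 33, and 2 were at 0 in both. This plain order was not counted over the 4119 abundant and even transcripts. The median log2 ratio of leaf to rootlet, on FPKM + 1, was -1.47 for the members and -0.62 over the 4119 abundant and even transcripts. By counting limits, the leaf to rootlet ratio was above 1 for 5 members and below 1 for 20. Over the 4119 transcripts the shares were 16.6% and 59.8%, both larger than among the members. Rootlet above leaf was thus not particular to the members. The 5 above 1 were the 3 isoforms of TR35678 and both members of TR44090. For the other 21 members the limits included 1 or could not be formed, since the fragments were few, with a median of 2.5 fragments per member in leaf and 14.5 in rootlet. The shares with limits below 1 and the medians of the members rest on these low counts.

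Counting limits also bear on membership. The lower limits of all 4 folds over leaf and rootlet were at least 4 for 26 members and at least 1 of them was under 4 for the other 20. A length of 300 bases or less was found for 14 members, against 12.5% of the 4119 abundant and even transcripts, and 10 of these 14 had a limit under 4. The median length was 637 bases for the members (235 to 1893), 868 for the 4119 and 368 for all transcripts, and 18 members were longer than 1000 bases.

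The values just inside and just outside each threshold lay close together for 3 of the 4 conditions and further apart for leaf. The lowest tuberous level inside was 30.2 FPKM, of TR52981|c4_g1_i12 in mother root, and just outside lay TR45585|c1_g4_i1 at 29.3 FPKM. The largest fold between tuberous roots was 1.92, of TR44885|c2_g1_i1, and the next outside was 2.04, of TR45464|c2_g8_i3, which was higher in daughter root (1967 FPKM in mother root and 4012 FPKM in daughter root, against 145.2 FPKM in leaf and 468.4 FPKM in rootlet). Over leaf, TR38636|c0_g1_i3 was inside at 4.04 and TR39560|c0_g3_i1 outside at 2.97. Over rootlet, TR21242|c0_g1_i1 was inside at 4.12, on 7 rootlet fragments, and TR23382|c0_g1_i1 outside at 3.9993, on 8 rootlet fragments.

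The study also grouped transcripts of 3 *Aconitum* species into orthogroups, families of genes derived from 1 ancestral gene, in tables held here in part. TR44885|c2_g1_i1 was listed in an orthogroup shared with *A. carmichaelii* but not with *A. heterophyllum*. The study cautions that such an absence could stem from the smaller number of tissues behind the *A. heterophyllum* assembly. TR44090|c3_g1_i1 and TR46776|c0_g1_i1 were listed in orthogroups that the study names single-copy. TR46776|c0_g1_i1, named because of this listing, is 1648 bases long and had 128.9 FPKM in mother root and 162.2 FPKM in daughter root, against 1.48 FPKM in leaf and 19.3 FPKM in rootlet. Daughter root was the higher tuberous root for TR44090|c3_g1_i1 and TR46776|c0_g1_i1, and mother root for TR44885|c2_g1_i1.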

How the data were processed

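Libraries were made from the mRNA of mother root, daughter root, leaf and rootlet, with 1 library per tissue. The authors trimmed reads with Trimmomatic, assembled all tissues with Trinity, removed redundancy with CD-HIT-EST, used Bowtie 2 for alignment and RSEM for abundance. The deposited values are FPKM, which was the measure used here, and expected counts, which were whole numbers and gave the depth and the counting limits. The deposited TPM was not used. The deposited percent of a gene held by each isoform was not used either, because each gene entry holds 1 transcript, so the percent is 0 or 100. Trinity genes were instead read from transcript names.

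Python 3.11.15 with numpy 2.4.6, pandas 2.3.3, scipy 1.17.1 and matplotlib 3.10.9 was used. Limits were Clopper-Pearson (ratios conditional on the total) or exact Poisson, at 95%, with a floor of 3 fragments and a pseudocount of 1 FPKM for the medians of log2 ratios. The selection, in effect without its minimum of 30 FPKM, was tested on simulated data for transcripts of high count. That test does not cover members with few fragments in leaf or rootlet. No test between tissues was possible. Members and lists were chosen with earlier results of these data known. Named transcripts were the described members, the 5 of highest tuberous mean, the 5 of largest lower limit, clusters with 3 or more members, the 2 highest and 2 lowest mother root to daughter root ratios, the transcripts next to each threshold, the 2 longest and those at 0 in leaf and rootlet; others are marked. Alternatives covered scaling, sums per Trinity gene, the thresholds, counting limits, fragment and length minimums and the pseudocount. No genome was used, so no positions are given.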

Additional observations from a re-analysis of the deposited data

How the results depend on the processing

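No paired analysis was possible because each tissue has 1 library, and for the same reason no library could be left out. Of 46 members, 8 were kept under all 10 alternatives that list transcripts, TR51009|c2_g1_i1 and TR44175|c1_g1_i1 among them. The number of members was 70 with a minimum of 20 FPKM, 22 with at least 8 times leaf and rootlet, 30 within 1.5-fold, 26 with the fold at the lower counting limit and 24 with a length of at least 500 bases. It stayed between 31 and 62 under the other alternatives, with 48 at equal sums of FPKM, 39 under median-of-ratios factors (36 of them among the 46) and 42 Trinity genes when FPKM was summed. Members with mother root above daughter root, 20 in all, numbered 35 with a minimum of 20 FPKM, 12 at 8 times, 13 at the lower counting limit and 9 with at least 500 bases. The median log2 mother root to daughter root ratio, -0.08, came to 0.009984 at 8 times and stayed below 0 under the other alternatives. Members with leaf above rootlet, 11 in all, numbered 6 at 8 times, 6 within 1.5-fold, 7 at the lower counting limit and 6 with at least 500 bases. The median log2 ratio of leaf to rootlet, -1.47, was -2.75 with a pseudocount of 0.1, -0.41 at 8 times (nearer to 0 than the -0.62 of the abundant and even transcripts) and between -2.27 and -1.02 under the other alternatives. Fewer or more members follow from stricter or looser rules by construction. Leaving out TR51009|c2_g1_i1, an alternative chosen after seeing the data, left 45 members. Of them, 20 had mother root above daughter root and 11 had leaf above rootlet. The median log2 ratios were -0.08 for mother root to daughter root and -1.51 for leaf to rootlet, near those of all 46. The shallower libraries of leaf and rootlet limit the folds of low members most.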

Other observations

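The transcripts that passed every condition except similar tuberous levels were mostly on the daughter root side, with 38 of 49 higher there, against 355 of the 785 abundant transcripts more than 2-fold apart. The one nearest to the bound, TR45464|c2_g8_i3, had 1967 FPKM in mother root and 4012 FPKM in daughter root, against 145.2 FPKM in leaf and 468.4 FPKM in rootlet. No cause was examined.

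In the Trinity cluster TR54318, of which TR54318|c10_g4_i1 is the single member, other transcripts were strongly on the mother root side. TR54318|c10_g15_i1 had 168.2 FPKM in mother root and 15.2 FPKM in daughter root, against 5.71 FPKM in leaf and 3.28 FPKM in rootlet, and TR54318|c10_g13_i1 had 156.5 FPKM in mother root and 19.0 FPKM in daughter root, against 2.41 FPKM in leaf and 2.42 FPKM in rootlet. Their ratios of mother root to daughter root were 11.1 and 8.23, against 0.906 (0.678 to 1.21) for TR54318|c10_g4_i1. Both were chosen after their values were seen. Transcripts of 1 cluster can share sequence, so their values depend on how shared fragments were assigned.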
